A study of Mus musculus with 10 samples.

Results

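The 41 genes described here are a set of cell cycle and DNA replication genes, measured in heart tissue of mice lacking the kinase HIPK2 and of wild-type mice. Members were taken as every probe that is not a control and whose gene name on the array equals a listed gene, which gave 74 of the 56605 probes and all 41 of the 41 genes listed, out of 37325 genes named on the array. They fall into 10 replication genes, 3 genes that control entry into DNA synthesis (the G1/S step), and 28 mitosis genes. Members were matched by gene name, and the list itself was drawn up with earlier results of these arrays known.

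The study compared 5 samples labelled HIPK2 knockout with 5 labelled wild type, all cardiac tissue of male mice, each on its own 1-colour Agilent array. Knockout mice came from C57BL/6 embryos injected with CRISPR reagents and carry a frameshift deletion in the second exon of Hipk2, which is not limited to 1 cell type, and founders were bred to C57BL/6 wild-type mice. The labels used here state no age and no treatment. They also do not say whether each sample is a separate animal, so a p-value reflects only how these samples vary. The HIPK2 protein is a homeodomain interacting kinase of the nucleus, and p53 is among the regulators of transcription it acts on.

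A cell that divides first copies its DNA and later separates the copies. Before DNA synthesis, cyclin E with its kinase partner releases E2F factors, which switch on genes for the MCM helicase, the sliding clamp PCNA and the enzymes that make DNA building blocks. Mitosis genes, whose promoters are also read by the repressor complex DREAM, are switched on later through the B-MYB and FOXM1 complexes. Their products condense chromosomes, build the spindle and drive exit from division. Cardiac muscle cells of the adult mouse divide rarely, so in a piece of whole heart mitotic transcripts are scarce and can come from any dividing cell, such as endothelial cells, fibroblasts or immune cells. In such bulk tissue, fewer cells of a type and less RNA per cell cannot be told apart.

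The promoters of the mitosis and replication genes were compared for the letters that these factors read. RefSeq promoters (build GRCm38.p6, 250 bases before to 50 bases from the start) were given for 34 of the 41 members, 23 mitosis, 9 replication and 2 G1/S genes. Both strands were searched for the core of the cell cycle homology region, TTTGAA, which the DREAM and B-MYB complexes recognise, for the CCAAT box bound by NF-Y, and for 4 E2F-type sequences, TTTGGCGC, TTTCGCGC, TTTCCCGC and TTTGGCGG. TTTGAA was found in 16 of 23 mitosis promoters (69.6%) and in 1 of 9 replication promoters (11.1%), that of Mcm2, against 17.9% of all 32851 promoters of the same length. TTTGAA and CCAAT stood together in 15 of 23 mitosis promoters (65.2%), against 6.95% of all promoters. The E2F-type letters were found in 4 of 9 replication promoters (44.4%), those of Mcm3, Mcm5, Mcm6 and Mcm7, and in 2 of 23 mitosis promoters (8.7%), against 2.37% of all. CCAAT alone was frequent in both groups, in 8 of 9 replication promoters (88.9%) and 18 of 23 mitosis promoters (78.3%), against 37.4% of all. The 2 G1/S promoters, those of E2f1 and Ccne1, held none of these letters in the window.

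Of the 5 promoters printed here, 3 belong to mitosis genes (Ccnb2, Cdc20 and Birc5) and 2 to replication genes (Mcm5 and Mcm6). Ccnb2 and Birc5 are shown because they were the members that passed the test of genotype, and the others because they hold the letters counted above. Each line gives 160 bases before the RefSeq start and 30 from it, 5′ to 3′ along the gene, on GRCm38.p6, with matches on either strand in capitals.
Ccnb2, chr9:70421525-70421714, minus strand: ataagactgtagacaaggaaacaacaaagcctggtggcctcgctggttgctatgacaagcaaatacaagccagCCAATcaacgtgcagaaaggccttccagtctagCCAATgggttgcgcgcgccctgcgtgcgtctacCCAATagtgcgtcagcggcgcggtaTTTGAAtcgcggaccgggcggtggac
Cdc20, chr4:118437314-118437503, minus strand: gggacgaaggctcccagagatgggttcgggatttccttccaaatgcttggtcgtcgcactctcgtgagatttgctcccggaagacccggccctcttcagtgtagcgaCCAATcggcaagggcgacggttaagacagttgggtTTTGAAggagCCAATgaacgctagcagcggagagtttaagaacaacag
Birc5, chr11:117849077-117849266, plus strand: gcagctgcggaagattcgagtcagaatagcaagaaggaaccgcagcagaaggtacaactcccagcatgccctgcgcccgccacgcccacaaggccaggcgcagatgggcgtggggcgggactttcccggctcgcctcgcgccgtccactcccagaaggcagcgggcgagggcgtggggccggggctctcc
Mcm5, chr8:75109349-75109538, plus strand: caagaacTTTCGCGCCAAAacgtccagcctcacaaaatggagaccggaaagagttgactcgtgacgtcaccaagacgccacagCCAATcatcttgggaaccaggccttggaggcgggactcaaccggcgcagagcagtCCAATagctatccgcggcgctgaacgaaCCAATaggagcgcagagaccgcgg
Mcm6, chr1:128359676-128359865, minus strand: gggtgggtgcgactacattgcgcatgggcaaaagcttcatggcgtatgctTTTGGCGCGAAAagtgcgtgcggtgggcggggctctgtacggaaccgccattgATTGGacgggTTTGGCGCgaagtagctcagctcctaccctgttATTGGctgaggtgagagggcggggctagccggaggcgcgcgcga
Ccnb2 carries 3 CCAAT boxes, whose first bases lie 33 bases apart, and then TTTGAA at bases 5 to 10 counted from the start. Cdc20 has TTTGAA between its 2 CCAAT boxes. The Birc5 window holds none of the searched letters, which says only that these letters are not in it. In Mcm5 a match of TTTCGCGC on one strand overlaps a match of TTTGGCGC on the other, and in Mcm6 the same pair overlaps farther from the start, with another TTTGGCGC nearer to it. A match is a description of the sequence and no binding was measured here.

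Levels are given below as log2 of the spot signal relative to the 75th percentile of the same array, so that 0 is the level that 75% of spots do not exceed. Differences are knockout minus wild type on the log2 scale, with their standard error (SE), and a gene is called where the adjusted p (limma, Benjamini-Hochberg over the 20607 genes tested) was under 0.05. The 75th percentile itself was 286 to 460 on knockout arrays and 462 to 542 on wild-type arrays, so every knockout array was dimmer. Spots well above background made up 45.8% to 58.3% on knockout and 55.7% to 60.4% on wild-type arrays. The lowest signal counted as above background lay at -4.91 to -3.01 on knockout arrays and at -5.08 to -4.61 on wild-type arrays, on the log2 scale given above. The 10 cardiomyocyte markers were well above background on all 10 arrays, as cardiac tissue should have them. The 3 Hipk2 probes differed by -0.01, 0.04 and 0.11 (SE 0.09, 0.17 and 0.10), none of them called, and whether any lies in the deleted stretch was not examined, so they do not check the labels. Wild-type replicates 1 and 2 lay on slide 1 and the other 8 arrays on slide 2.

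Few members differed between the genotypes. Of the 41, 33 passed the filter on dim probes and were tested, and 2 were lower in knockout, the mitosis genes Birc5 and Ccnb2, while none was higher. Over all genes tested, 4.94% were called, 1.97% higher and 2.97% lower in knockout, so 2 of 33 is near the background share. At an unadjusted limma p under 0.05, 5 members were lower and 2 higher, against 12.3% and 14.8% of all genes (27.2% in all). Values fell below 0 for 20 of the 33 members, against 45.9% of all genes.

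**Figure D1:**
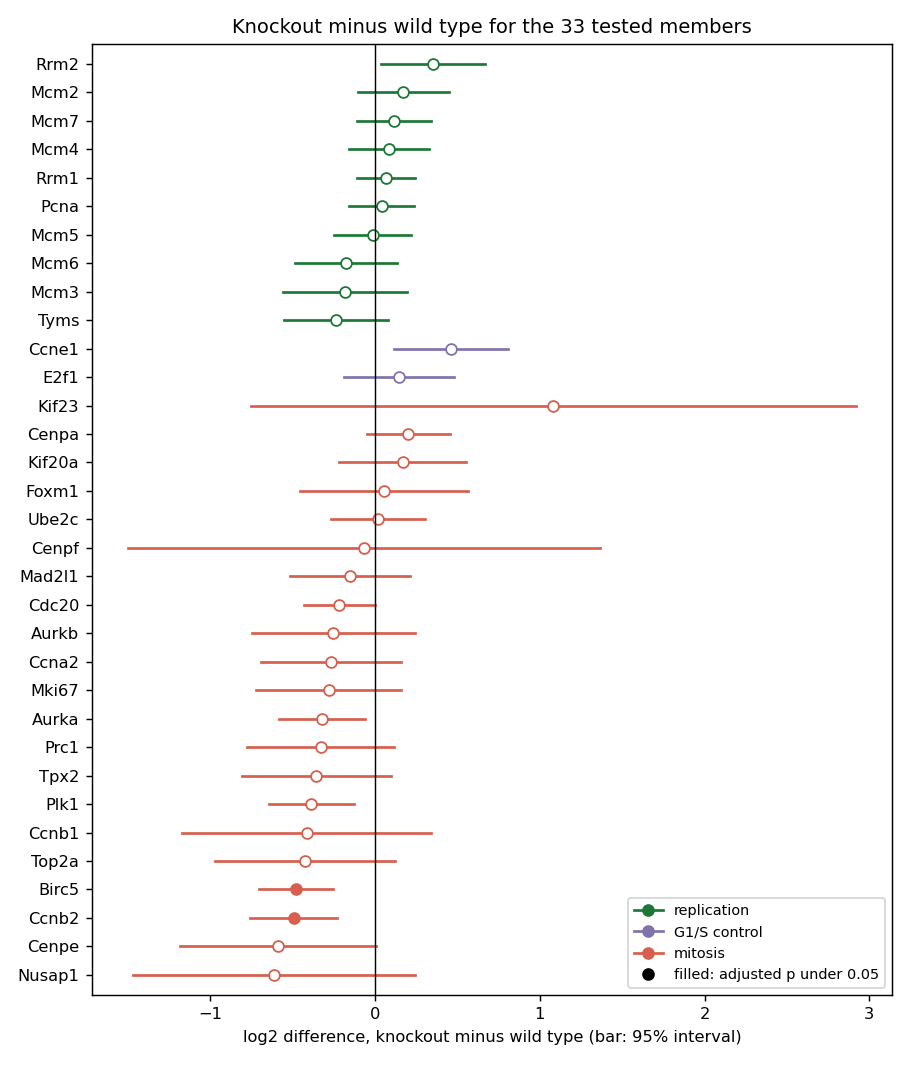
Log2 difference between knockout and wild-type hearts (horizontal axis) for each of the 33 tested members (rows), grouped by role, with bars for the 95% interval and filled points for an adjusted p under 0.05. Birc5 and Ccnb2 are the filled points, the 10 replication genes lie between -0.24 and 0.35, and 16 of the 21 mitosis genes lie below 0.

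The 10 replication genes were measured well above background on all 10 arrays and none was called (unadjusted p was under 0.05 for 1 of them, Rrm2). Their median difference was 0.05, beside 0.03 over all genes, and 4 of 10 were below 0. The 6 subunits of the MCM2-7 helicase, which unwinds DNA at the fork, had differences of 0.17 (Mcm2), 0.12 (Mcm7), 0.08 (Mcm4), -0.01 (Mcm5), -0.17 (Mcm6) and -0.18 (Mcm3), with SEs from 0.10 to 0.17. All 4 Mcm3 probes pointed the same way, from -0.28 to -0.18, with none called.

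Pcna, the clamp that holds the polymerase on DNA, was 3.11, 2.94, 2.74, 3.14 and 2.99 in knockout replicates 1 to 5 and 2.99, 2.92, 2.90, 3.00 and 2.92 in wild-type replicates 1 to 5. The knockout values spread on both sides of the wild-type values. The difference was 0.04 with a 95% interval from -0.16 to 0.24 (limma adjusted p = 0.797).

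Rrm2, the small subunit of ribonucleotide reductase, had the largest positive difference of the replication genes. It was -1.13, -1.08, -1.17, -0.95 and -0.46 in knockout and -1.23, -1.54, -1.17, -1.45 and -1.17 in wild type. Knockout replicate 5 was the highest array, and knockout replicate 3 lay just below the highest wild-type values, so the groups touched. The difference was 0.35 ± 0.14 (SE, limma adjusted p = 0.147). The large subunit, Rrm1, differed by 0.07 ± 0.08.

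Mcm2 was -1.51, -0.996, -1.50, -1.16 and -1.04 in knockout and -1.40, -1.22, -1.38, -1.61 and -1.47 in wild type, with 2 knockout arrays near the lowest and 3 above every wild-type array. Its difference was 0.17 ± 0.13 (limma adjusted p = 0.398). Mcm6 was 1.02, 0.93, 1.20, 0.87 and 1.33 in knockout and 1.02, 0.92, 1.32, 1.41 and 1.56 in wild type, where replicates 1 and 2, the arrays of slide 1, were the low ones. The Mcm6 difference was -0.17 ± 0.14 (limma adjusted p = 0.445).

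Tyms, thymidylate synthase, was the 1 replication gene whose probes differed in outcome. Its brightest probe read -1.56, -1.98, -1.71, -1.62 and -1.66 in knockout and -1.83, -1.69, -1.45, -1.19 and -1.18 in wild type, overlapping, with a difference of -0.24 ± 0.14 (limma adjusted p = 0.308). A dimmer Tyms probe was -3.51, -3.33, -3.80, -3.67 and -3.02 in knockout against -2.79, -2.82, -2.52, -2.84 and -2.39 in wild type. That probe was well above background on 3 of 5 knockout and all 5 wild-type arrays and so passed the filter through wild type alone. Knockout replicates 3 and 4 lay below their arrays' lowest signal counted as above background (-3.01 and -3.60). With every one of the 30692 kept probes tested, its fitted difference was -0.79 ± 0.15 (limma adjusted p = 0.0248, with 4.44% of probes called, 1.69% higher and 2.76% lower). The size of this difference rests in part on signals at background. Knockout replicates 1, 2 and 5, which were above background, lay below every wild-type value of this probe. As the probe passed through wild type alone, no level of Tyms is drawn from it. The third Tyms probe differed by -0.28 ± 0.14 and was not called.

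Of the G1/S genes, Ccne1, the cyclin that starts DNA synthesis, was -1.21, -0.77, -1.33, -1.26 and -0.77 in knockout and -1.59, -1.70, -1.10, -1.54 and -1.72 in wild type. Wild-type replicate 3 lay among the knockout values and the other 4 wild-type arrays below all of them. The difference was 0.46 ± 0.16 (limma adjusted p = 0.0983), and with normexp, a model-based background correction, it was 0.44 and passed (adjusted p = 0.0251). E2f1, the activator of S-phase genes, was -3.98, -3.32, -3.24, -3.53 and -3.24 in knockout and -3.72, -3.78, -3.35, -3.67 and -3.54 in wild type, with knockout on both sides of wild type. It differed by 0.15 ± 0.15 (limma adjusted p = 0.559) and was well above background on 9 arrays. Ccne2, the second cyclin E, was above background on 3 arrays and was not tested.

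The mitosis genes leaned lower in knockout, by amounts that mostly did not pass. Of 28, 21 were tested, 2 were called lower and none higher, against 2.97% and 1.97% of all genes. Values were below 0 for 16 of 21, against 45.9% of all genes, with a median of -0.28 beside 0.03 over all genes. The 21 include 6 genes that passed the filter through wild type alone. Of the 15 that passed in both genotypes, 11 were below 0. Birc5, also called survivin, is the subunit of the chromosomal passenger complex that brings Aurora B kinase to centromeres. It was -1.98, -2.13, -2.05, -1.82 and -1.69 in knockout and -1.63, -1.32, -1.44, -1.41 and -1.46 in wild type. The groups were apart, with a narrow gap between knockout replicate 5 and wild-type replicate 1. Birc5 was 1.40-fold lower (-0.48 ± 0.10, 95% interval -0.71 to -0.26, limma adjusted p = 0.0301).

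Ccnb2, cyclin B2, a partner of the kinase CDK1 that drives entry into mitosis, was -2.85, -3.13, -2.56, -2.58 and -2.63 in knockout and -2.21, -2.30, -2.29, -2.09 and -2.39 in wild type. The groups did not overlap, and knockout replicate 2 was the lowest array. Ccnb2 was 1.41-fold lower (-0.49 ± 0.12, 95% interval -0.76 to -0.23, limma adjusted p = 0.0435). Groups did not overlap in the lower direction for 4.44% of all genes, and for Birc5 and Ccnb2 alone among the 33 members. In the higher direction this held for 4.54% of all genes and for no member. Both probes were well above background on all 10 arrays. On mouse build mm9, as the array files give it, the Birc5 probe lies at chr11:117716959-117717018 and the Ccnb2 probe at chr9:70255671-70255730, and no exon annotation on mm9 was consulted.

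**Figure D2:**
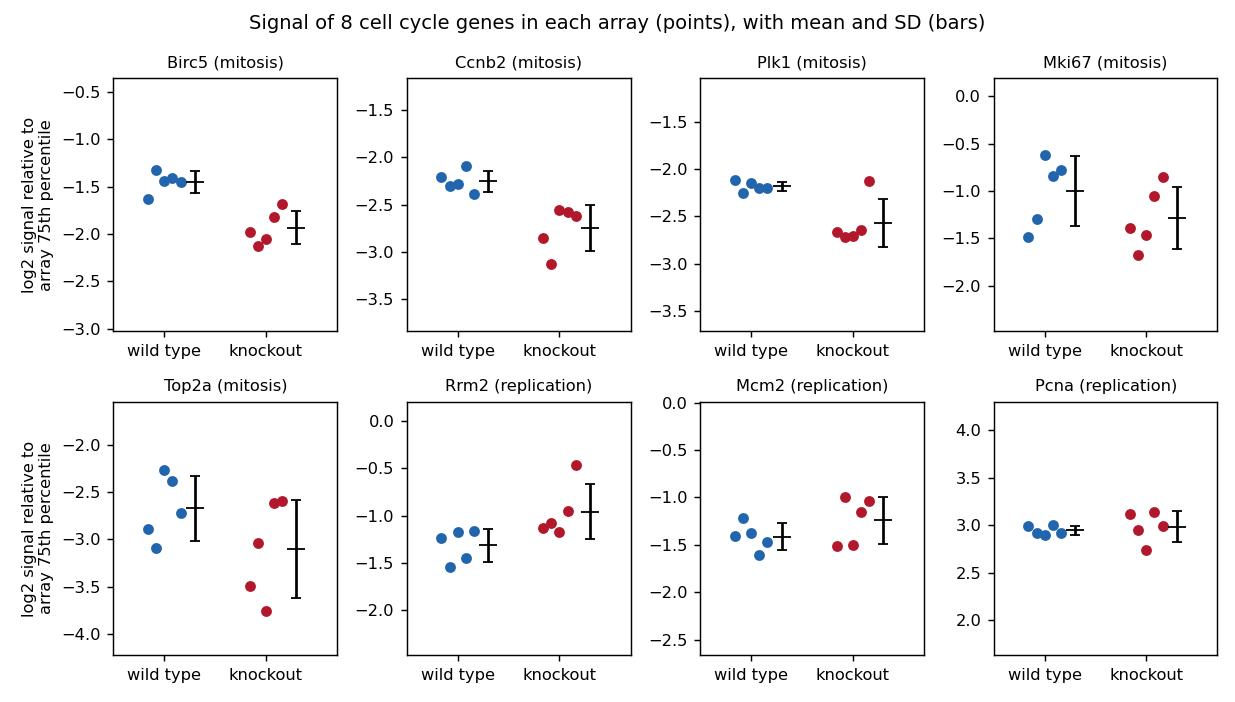
Log2 signal relative to the array's 75th percentile (vertical axis, same span in each panel) for 8 members in each of the 5 wild-type and 5 knockout arrays (points), with the mean and SD beside them. Knockout lies below wild type without overlap for Birc5 and Ccnb2, Plk1 has 1 knockout array at the wild-type level, and Mki67, Top2a, Rrm2, Mcm2 and Pcna overlap.

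Both calls were close to the threshold. The Birc5 call held in 4 of the 10 fits with 1 array left out, those without knockout replicate 3, 4 or 5 or wild-type replicate 1. Its limma adjusted p was highest without wild-type replicate 4 (0.0715), and it was 0.0614 and 0.0685 without knockout replicate 1 or 2 and 0.0709, 0.0509 and 0.0654 without wild-type replicate 2, 3 or 5. The Ccnb2 call held only without knockout replicate 3 (adjusted p = 0.0438) and reached 0.0983 without wild-type replicate 4. The size of the difference stayed between -0.54 and -0.43 for Birc5 and between -0.54 and -0.40 for Ccnb2 in these fits. Within slide 2 the differences were -0.50 (adjusted p = 0.0619) and -0.49 (adjusted p = 0.121), and with slide as a block -0.50 (0.0518) and -0.49 (0.0871). Of 11 other settings, Birc5 kept its call in 5 and Ccnb2 in 4.

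Plk1, polo-like kinase 1, which acts at spindle poles and kinetochores, stood next to the threshold. It was -2.66, -2.72, -2.70, -2.65 and -2.13 in knockout and -2.12, -2.25, -2.15, -2.21 and -2.20 in wild type. In 4 knockout arrays it was below every wild-type array, and knockout replicate 5 lay within the wild-type range. The difference was -0.39 ± 0.12 (limma adjusted p = 0.0757), and without knockout replicate 5 it was -0.50 and passed (adjusted p = 0.0142). It passed in none of the other 9 fits with 1 array left out (adjusted p from 0.107 to 0.141) and in 0 of 11 other settings, and with normexp the difference was -0.06 (adjusted p = 0.631).

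Aurka, the Aurora kinase of the spindle poles, was -2.23, -2.46, -2.58, -2.12 and -2.04 in knockout and -2.05, -2.08, -1.79, -1.86 and -2.05 in wild type, with knockout replicate 5 inside the wild-type range. It differed by -0.32 ± 0.12 (limma adjusted p = 0.121). Cdc20, which activates the ubiquitin ligase that ends metaphase, was -1.15, -1.26, -1.15, -0.998 and -0.91 in knockout and -1.10, -0.93, -0.77, -0.80 and -0.79 in wild type. Knockout replicates 4 and 5 overlapped wild-type replicates 1 and 2, and the difference was -0.22 ± 0.10 (limma adjusted p = 0.182). A second Cdc20 probe differed by -0.14 ± 0.14.

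Mki67, which encodes the proliferation marker Ki-67, was -1.39, -1.67, -1.47, -1.05 and -0.86 in knockout and -1.49, -1.30, -0.62, -0.84 and -0.77 in wild type. Wild-type replicate 1 lay among the lower knockout arrays and wild-type replicate 2 just above them, so the genotypes overlapped widely (-0.28 ± 0.20, limma adjusted p = 0.383). Top2a, the topoisomerase that untangles sister chromatids, was -3.49, -3.04, -3.75, -2.61 and -2.60 in knockout and -2.90, -3.09, -2.27, -2.38 and -2.72 in wild type. Knockout replicates 2, 4 and 5 lay inside the wild-type range (-0.43 ± 0.25, limma adjusted p = 0.287), and the probe was above background on 9 arrays. Cenpe, a kinetochore motor, was -3.74, -3.81, -3.80, -3.25 and -3.0 in knockout and -3.62, -3.36, -2.17, -2.69 and -2.82 in wild type, again with the arrays of slide 1 low in wild type. It differed by -0.59 ± 0.27 (limma adjusted p = 0.187) and was above background on 3 of 5 knockout arrays, so that it passed the filter through wild type alone. Of 10 other settings it passed in 1, slide as a block (-0.96, adjusted p = 0.0474). Slide 2 alone gave the same difference with an adjusted p of 0.0675, normexp gave -0.07 (0.755) and the atrial covariate -0.32 (0.550).

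A few mitosis genes had positive values. Cenpa, the histone variant of centromeres, was 2.22, 2.12, 1.87, 2.09 and 2.14 in knockout and 2.16, 1.85, 1.88, 1.58 and 1.97 in wild type, overlapping (0.20 ± 0.11, limma adjusted p = 0.276). Kif20a, a kinesin of the central spindle, differed by 0.17 ± 0.17, Foxm1, a transcription factor of G2 genes, by 0.05 ± 0.23, and Ube2c, the ubiquitin-conjugating enzyme of the metaphase ligase, by 0.02 ± 0.13. Kif23, a kinesin of the midbody, had the largest positive difference of all members (1.08 ± 0.83, limma adjusted p = 0.421), and 1 array set it: knockout replicate 3 read 1.00 while the other 9 arrays lay between -4.43 and -3.03. Without that array the difference was 0.16, and another Kif23 probe differed by 0.02 ± 0.19.

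More of the mitosis than of the replication genes lay near background. Of the 74 member probes, 30 were well above background on all 10 arrays and 18 on none. Among the 33 members tested, 6 passed the filter through wild-type arrays alone, all of them mitosis genes. These were Ccnb1 (above background on 1 of 5 knockout arrays), Aurkb, Nusap1, Tpx2 and Foxm1 (2 of 5 each) and Cenpe (3 of 5). Their differences were -0.42, -0.25, -0.61, -0.36, 0.05 and -0.59, in that order, none called. Tpx2, which activates Aurora A on the spindle, was -4.81, -4.11, -4.08, -4.65 and -3.68 in knockout and -4.16, -4.09, -3.61, -3.82 and -3.87 in wild type, overlapping and near the lowest signal counted as above background (limma adjusted p = 0.284). Since the filter can favour genes that are brighter in 1 genotype, the 15 mitosis genes that passed in both genotypes were also counted: 11 of 15 were below 0, with a median of -0.27. For the 14 above background on all 10 arrays, 10 were below 0, with a median of -0.24.

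The 8 members not tested were Cdk1, the kinase of mitotic entry, Bub1, Bub1b and Ttk of the spindle checkpoint, the kinesins Kif11 and Kif2c, the kinase Melk, and Ccne2. Bub1, Kif2c and Ttk were above background on no array, with 2, 2 and 4 probes. Cdk1 was above background on 3 arrays and read -5.66, -6.06, -4.17, -3.86 and -4.34 in knockout and -4.69, -5.06, -4.71, -4.31 and -5.06 in wild type. Values at that depth have no order, since the background of the arrays themselves differs: a Ttk probe that was above background nowhere read -7.24 on knockout replicate 1 and -5.27 on knockout replicate 3.

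The lower lean of the mitosis genes depended on how background was removed. With normexp, 9 of 21 mitosis values were below 0 and their median was 0.03, while the replication median was 0.06 and 4 of 10 values were below 0. The median over all genes was 0.08 with normexp, above that of the mitosis genes. Birc5 remained called with a smaller difference (-0.26, limma adjusted p = 0.0486) and Ccnb2 was not (-0.11, adjusted p = 0.465). Foxm1, the factor of G2 genes, was called higher (0.29, adjusted p = 0.0461), and Ccnb1 (0.20), Aurkb (0.21), Tpx2 (0.21), Nusap1 (0.06) and Top2a (0.03) turned from below to above 0 without passing. Over all genes, normexp called 3100, of which 71.6% were higher in knockout, against 39.8% of the 1017 calls under the scanner software's subtraction. With quantile normalization and in the authors' deposited table, Birc5 and Ccnb2 both kept their calls, and the mitosis median was -0.34 in each.

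**Figure D3:**
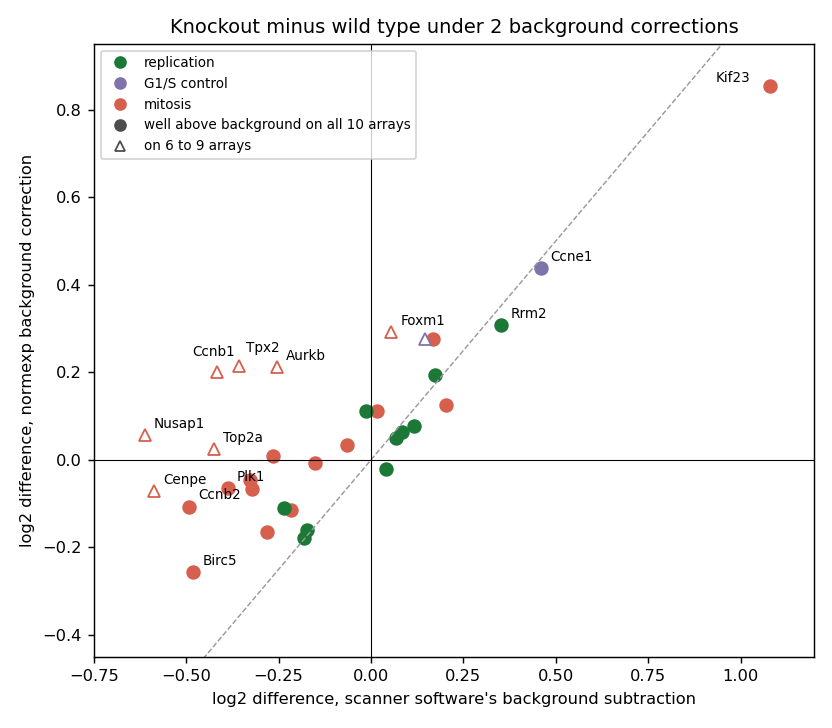
Log2 difference, knockout minus wild type, for the 33 tested members under the scanner software's background subtraction (horizontal axis) and under normexp (vertical axis), with the dashed line marking equal values. The replication genes lie near the line, whereas many mitosis genes, most of all those not above background on every array (triangles), lie above it, and 9 of 21 mitosis genes remain below 0 on the vertical axis.

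Mean levels over the members overlapped between genotypes in both groups. The mean over the 21 tested mitosis genes was -2.66, -2.64, -2.54, -2.45 and -2.17 in knockout and -2.34, -2.45, -2.18, -2.25 and -2.27 in wild type (-2.49 ± 0.20 and -2.30 ± 0.10, SD, n = 5 each). Knockout replicates 1, 2 and 3 were the lowest arrays, and knockout replicate 5 was the highest of all. The 21 include the 6 genes that passed the filter through wild type alone, so the lower knockout mean rests in part on the filter. They also include Kif23, whose value of 1.00 on knockout replicate 3, against -3.37 for the next knockout array, raised the mean of that array. The mean over the 10 replication genes was -0.05, 0.00, -0.07, -0.04 and 0.20 in knockout and -0.07, -0.09, 0.04, -0.02 and 0.07 in wild type (0.01 ± 0.11 and -0.01 ± 0.07, SD, n = 5 each), and knockout replicate 5 was again the highest.

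Many mitosis genes were high on the same arrays, which included arrays of both genotypes. The 5 highest arrays for Mki67 were knockout replicates 4 and 5 and wild-type replicates 3, 4 and 5. The same 5 arrays were the highest for 4 of the 20 other mitosis genes, Top2a, Ccna2, Cenpe and Prc1, and at least 4 of them for 13 of 20. The 13 include all 6 genes that passed the filter through wild type alone (Ccnb1, Aurkb, Cenpe, Nusap1, Tpx2 and Foxm1). The array order of those 6 rests in part on signals at background. The share of all genes with such an order was not counted. Among the 10 replication genes, none shared all 5 and 4 shared at least 4 (Mcm3, Mcm5, Mcm6 and Tyms). These arrays share slide 2, and wild-type replicates 1 and 2 are the arrays of slide 1, so within wild type this pattern and the slide cannot be told apart. Within slide 2 alone, 18 of 21 mitosis values were below 0, with a median of -0.39.

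**Figure D4:**
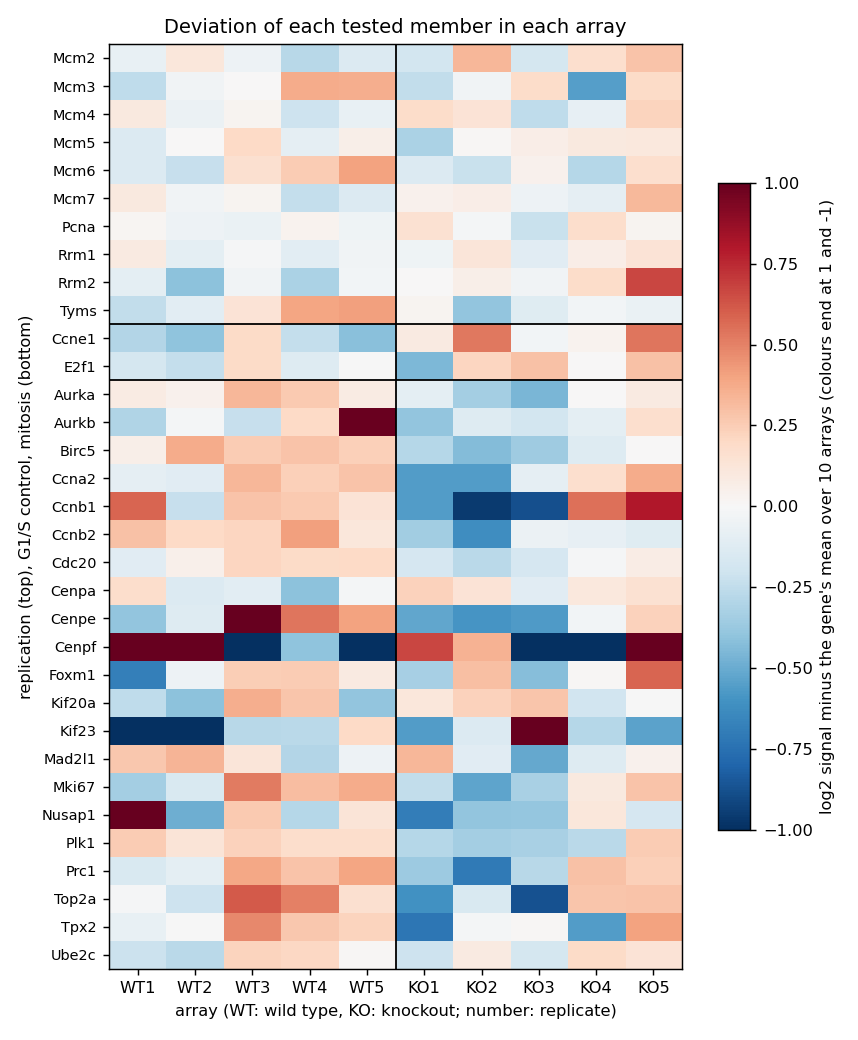
Deviation of each tested member (rows) from its own mean over the 10 arrays (columns, wild type left and knockout right), in log2 units, with colours ending at 1 and -1. Mitosis genes such as Mki67, Top2a, Ccna2, Cenpe and Prc1 are high together on WT3, WT4, WT5, KO4 and KO5, and replication genes show smaller deviations.

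Marker lists of the cell types in the tissue had values on both sides of 0. Over all genes, 1.97% were called higher and 2.97% lower, and at an unadjusted limma p under 0.05 the shares were 14.8% and 12.3%. All 10 endothelial markers were below 0 in knockout (median -0.22, 2 called lower), and the mean over them was 2.60 to 2.80 on knockout and 2.87 to 3.12 on wild-type arrays, without overlap. Their summed level, as log2, was 6.62 to 6.90 against 6.80 to 7.21. The 9 core macrophage markers were all below 0 (median -0.34, none called, 8 with an unadjusted p under 0.05), with a summed level of 6.22 to 6.53 in knockout and 6.53 to 6.84 in wild type. Of 10 fibroblast markers, 7 were below 0 and 1 was called lower (median -0.33), with sums of 8.01 to 8.84 and 8.45 to 8.57. Of 8 lymphocyte markers tested, 6 were above 0 and 1 was called higher (median 0.25), with sums of 1.51 to 2.04 in knockout and 0.80 to 1.54 in wild type. Of 6 erythroid precursor markers, 3 were above 0 and 1 was called higher (median 0.13), with sums of 2.37 to 2.61 and 1.98 to 3.05. The 4 fat markers were all below 0 with none called (median -2.01), with sums of -2.95 to -0.37 and -1.81 to 2.77. Of 10 cardiomyocyte markers, 8 were above 0 (median 0.45, none called, 6 higher with an unadjusted p under 0.05), with sums of 11.9 to 12.5 and 11.3 to 12.0. The 3 atrial markers had a median of -3, with summed levels of 0.78 to 3.64 in knockout and 0.38 to 6.67 in wild type. With the core macrophage score as a covariate no member was called, 14 of 21 mitosis values were below 0 and 6 genes were called in all. In that fit Birc5 differed by -0.425 ± 0.149 (limma adjusted p = 0.257) and Ccnb2 by -0.49 ± 0.179 (adjusted p = 0.274). Without the covariate they differed by -0.481 ± 0.102 and -0.493 ± 0.119. Of these lists, only the core macrophage and atrial scores were used as covariates. The part of the other cell types in the mitosis values was not tested.

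Other genes of the same steps were examined from lists drawn up by function. Of 58 other replication genes tested, 4 were higher and 1 was lower, against 1.97% and 2.97% of all genes. The other 53 did not pass, and the median over the 58 was 0.07. Higher were Rfc1, the large subunit of the clamp loader (0.34 ± 0.07, limma adjusted p = 0.0314), Gins1 of the CMG helicase (0.43 ± 0.10, adjusted p = 0.0389), Rpa2, which coats single-stranded DNA (0.42 ± 0.10, adjusted p = 0.0441), and Pole, the leading-strand polymerase (0.50 ± 0.13, adjusted p = 0.0485). Timeless, of the fork protection complex, was lower (-0.54 ± 0.12, adjusted p = 0.0305). At an unadjusted p under 0.05, 14 of the 58 were higher and 4 lower, against 14.8% and 12.3% of all genes. In fits with 1 array left out the calls of Rfc1, Gins1, Rpa2, Pole and Timeless held in 4, 3, 3, 2 and 4 of 10, and none held without wild-type replicate 4. Of 11 other settings they held in 5, 5, 6, 2 and 7.

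Rfc1 was 2.28, 2.22, 2.19, 2.25 and 2.23 in knockout and 1.94, 1.81, 2.03, 1.81 and 1.88 in wild type, so the groups did not overlap and the knockout arrays were tightly spaced. Timeless was 1.05, 1.1, 1.29, 1.21 and 1.15 in knockout and 1.34, 1.76, 1.98, 1.78 and 1.63 in wild type, also without overlap. For wild type, replicate 1 was the nearest to the knockout values.

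Of 59 other mitosis genes tested, none passed as higher and 2 passed the fit with values below 0, against 1.97% and 2.97% of all genes. The other 57 did not pass, and the median over the 59 was 0.03, with 26 of 59 values below 0. The lean to lower values of the 21 members did not appear in this longer list. The spindle protein gene Ckap2 was lower (-0.64 ± 0.16, limma adjusted p = 0.0494), above background on 4 of 5 knockout arrays. Arhgap11a also passed the fit (adjusted p = 0.0305), but on the knockout arrays it was nowhere well above background, while on all 5 wild-type arrays it was. Its wild-type mean of -4.39 lay below the lowest signal counted as above background on 3 knockout arrays (-3.76, -3.01 and -3.60), so no direction and no fold are drawn for it. With normexp neither passed (Ckap2 -0.06 and Arhgap11a 0.18), and Ckap2 kept its call in 1 and Arhgap11a in 6 of 10 fits that dropped 1 array.

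Of 44 other regulators of G1/S and quiescence tested, none was higher, 2 were lower and 42 did not pass, with a median of -0.05. Over all genes 4.94% were called, 1.97% higher and 2.97% lower, so 2 of 44 is near the background share. Mycn, a MYC family transcription factor, was -2.22, -2.05, -1.49, -1.66 and -1.72 in knockout and -1.01, -0.66, -0.15, -0.88 and -0.16 in wild type. It was 2.40-fold lower without overlap (-1.26 ± 0.20, limma adjusted p = 0.0132) and kept its call in all 10 fits that dropped 1 array. Cdkn1a, which encodes the p53-induced kinase inhibitor p21, was 1.67, 2.13, 2.32, 2.25 and 1.87 in knockout and 3.59, 2.66, 2.58, 3.40 and 3.71 in wild type. It was 2.21-fold lower, again without overlap (-1.14 ± 0.24, limma adjusted p = 0.0285), and kept its call in 5 of 10 such fits (adjusted p = 0.0699 when wild-type replicate 4 was dropped). Within slide 2 the Cdkn1a difference was -1.18 (adjusted p = 0.0527). With the core macrophage score as a covariate, Mycn differed by -1.21 (adjusted p = 0.161) and Cdkn1a by -1.13 (adjusted p = 0.230), and with the atrial score by -1.06 (0.0684) and -1.24 (0.0871).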

How the data were processed

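Total RNA from 10 heart samples was hybridised to 1-colour Agilent arrays. Spot intensity, on a linear scale and background-subtracted within each array, was written by Agilent Feature Extraction 10.7.1.1, per the submitters' processing notes and the file headers. The deposited files also hold other values, flags for outlier spots and for spots well above background, per the file headers. The authors deposited a log2 value table of the same arrays, used as an alternative only.

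Groups and replicate numbers came from the sample titles. Spots of one probe were averaged after control and outlier spots were left out. Log2 intensity was taken relative to each array's 75th percentile. Probes well above background on at least 4 of 5 arrays of 1 genotype were kept, 30692 of 56605. Each gene's brightest kept probe, by mean, stood for it. Names of 32994 probes were updated through RefSeq. The genotypes were compared with limma 3.58.1 (R 4.3.3), lmFit and eBayes, without covariates, over 20607 genes, with Benjamini-Hochberg adjustment and a threshold of 0.05. The script was tested on simulated data. The number of arrays, 5 per genotype, limits the precision.

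Named genes were those past the threshold, else the 4 replication, 6 mitosis and 2 G1/S genes with the smallest p, plus Mki67, Top2a, Pcna, Cdk1 and Mcm2. From each other list up to 6 genes past the threshold were named. Kif23, Cenpf, the dimmer Tyms probe, and Foxm1, Ccnb1, Aurkb, Nusap1 and other members given in passing were named after their values were seen. Members and lists were chosen with earlier results of these data known. Alternatives were normexp (offset 50), quantile normalization, no filter, a filter on all 10 arrays, every kept probe, slide, replicate block, atrial and macrophage covariates, the authors' table, and each array left out.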

Additional observations from a re-analysis of the deposited data

Results flagged for a closer look

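In the 33 tested members, each genotype's 5 arrays were examined for 1 array far from the rest (Dixon's ratio above 0.71). Of 66 such groups 3 met this, and chance gives about 1 in 20 groups, or 3.3 here. Kif23 read 1.00 on knockout replicate 3, where the next knockout value was -3.37, and without that array its difference was 0.16. Plk1 read -2.13 on knockout replicate 5, where the other 4 lay between -2.72 and -2.65, and without it Plk1 passed (limma adjusted p = 0.0142). Mcm5 read -1.77 on knockout replicate 1, where the other 4 lay between -1.44 and -1.35. Without that array the Mcm5 difference was 0.06 in place of -0.01.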

How the results depend on the processing

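Across settings other than leaving an array out, 352 values of named genes and members kept their direction and their side of the threshold, 67 lost a call, 4 gained one and 29 changed sign. The number of members called lower, 2 in the comparison as reported, was 1 with normexp (Birc5). It was also 1 with slide as a block, where the gene was Cenpe, which passed the filter through wild type alone, and neither Birc5 nor Ccnb2. With every kept probe it was 3, through the dimmer Tyms probe. It was 0 without a filter, in slide 2 alone, with the replicate block, and with the atrial or macrophage covariate. Members called higher were 2 with normexp and 0 elsewhere. Calls among other replication genes were 8 with normexp, 2 with the slide block, 1 in slide 2, and 0 without a filter, with the replicate block and with either covariate. Among other mitosis genes they were 8 with normexp, 1 with quantile normalization, with the authors' deposited table and with the filter on all 10 arrays, and 0 under the remaining settings that moved them (no filter, slide block, slide 2, replicate block, both covariates). Among other G1/S regulators they were 5 with normexp, quantile normalization and the authors' deposited table, 4 with the filter on all 10 arrays, 1 without a filter and with the replicate block, and 0 with either covariate. All genes called were 3100 with normexp, 173 without a filter, 458 in slide 2, 164 with the replicate block, 57 with the atrial and 6 with the macrophage covariate.

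With 1 array left out, calls ranged from 0 to 2 for members lower, 0 to 5 for other replication genes, 0 to 5 for other mitosis genes, 1 to 4 for other G1/S regulators and 282 to 940 for all genes, and 0 members were called higher. Replicate numbers were not treated as pairing the samples: correlations of same-numbered deviations were 0.02, 0.04, 0.05, -0.03 and -0.11 and no sample matched its own number best.

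Signs turned with normexp for Mcm5 (0.11), Pcna (-0.0212), Top2a (0.0252), Ccna2 (0.00876), Ccnb1 (0.20), Aurkb (0.21), Cenpf (0.0336), Nusap1 (0.0567), Tpx2 (0.21) and Arhgap11a (0.18). They turned with slide as a block and in slide 2 for Cenpf (0.77), Kif20a (-0.00031), Ube2c (-0.14) and Foxm1 (-0.17). With quantile normalization and in the authors' deposited table Ube2c was -0.0152 and -0.0142 and Foxm1 -0.0318 and -0.0317. With the macrophage covariate Mcm3 was 0.24, Mcm5 0.0872, Mcm6 0.0146, Pcna -0.0716, Cenpf 0.36 and Tpx2 0.22, and with the atrial covariate Mcm5 was 0.0595. With 1 array left out, Cenpf ranged from -0.42 to 0.29, Foxm1 from -0.11 to 0.17, Mcm5 from -0.0511 to 0.0636 and Ube2c from -0.0477 to 0.0744. The cause of these changes was not tested. Signal over background limits what can be said: 8 members, Ccne2 and otherwise mitosis genes, were not tested, and 6 of the mitosis genes tested passed through wild-type arrays alone.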

Other observations

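Cenpf, a kinetochore protein gene of the mitosis group, split the arrays without regard to genotype. Its brightest probe read 0.91, 0.58, -1.23, -0.84 and 1.60 in knockout replicates 1 to 5 and 1.66, 1.40, -0.77, -0.16 and -0.77 in wild-type replicates 1 to 5. The high arrays were knockout replicates 1, 2 and 5 and wild-type replicates 1 and 2, which lie on different slides. For Mki67, by contrast, knockout replicates 4 and 5 and wild-type replicates 3, 4 and 5 were the high arrays. The Cenpf difference between genotypes was -0.07 ± 0.65 (limma adjusted p = 0.960). The second Birc5 probe was above background on 1 array of each genotype and read -1.77 on knockout replicate 2, against -5.71 to -4.85 on the other 9 arrays.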
